A study of Mus musculus with 8 samples.

Results

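A set of 34 genes of the p53 pathway and of apoptosis was followed in the postnatal day 3 (P3) cortex of mice that lost BAF155 and BAF170, the scaffold subunits of the BAF chromatin remodeling complex, encoded by Smarcc1 and Smarcc2. The members were named by symbol, with no measured value in the rule, and comprised p53 and its inhibitors (3 genes), p53 targets in cell cycle arrest, stress and signaling (10), death receptors (3), pore-forming effectors (2), BH3-only proteins (7), anti-apoptotic guardians (3) and the caspase machinery (6). All 34 were found among the 48709 genes listed in the count files, and all 34 were among the 16525 genes that passed the filter on low counts. RNA was sequenced from 4 control and 4 dcKO_hGFAP-Cre samples of dorsal telencephalon, labelled as cortex, on a C57BL/6J background. The dcKO_hGFAP-Cre mice carried floxed alleles of both genes on both chromosomes (BAF155 fl/fl, BAF170 fl/fl) with the hGFAP-Cre transgene. The article describes its recombinase activity as prominent in radial glial cells of the dorsal telencephalon before birth. Such mutants died soon after birth. The labels call the other samples wild type, whereas the article's methods describe controls as carrying 1 floxed and 1 intact allele of each gene with hGFAP-Cre, so that Cre was present in both groups if the methods apply to these libraries. Cells outside the radial glial lineage, such as microglia and endothelial cells, are not targeted by this Cre.

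p53, the product of Trp53, is a transcription factor that is kept at a low level by the ubiquitin ligase MDM2 and its partner MDM4, and that becomes active mostly through protein stabilization when DNA or the cell cycle is disturbed. It then drives genes of arrest and repair and genes of cell death. In the mitochondrial route to apoptosis, BH3-only proteins such as PUMA (Bbc3), NOXA (Pmaip1) and HRK neutralize the guardians BCL2, BCL-XL (Bcl2l1) and MCL1, BAX and BAK open the outer mitochondrial membrane, and released cytochrome c activates caspase-9 through APAF1. Neural progenitors and newborn neurons are known to be sensitive to this route.

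Library totals lay between 21126713 and 31805395 counts (control) and between 22002784 and 32110285 counts (dcKO_hGFAP-Cre). Smarcc1 (log2 fold change -0.97) and Smarcc2 (-0.77) fell in every dcKO_hGFAP-Cre sample below every control sample. Marker genes of other cell types moved between the groups. Microglial markers rose for 7 of 9 genes, with a summed level of 104 to 135 CPM (counts scaled to the normalized library size) in control and 199 to 250 CPM in dcKO_hGFAP-Cre samples, interneuron markers rose for 6 of 6 (516 to 520 against 795 to 896 CPM) and striatal neuron markers for 4 of 7 (113 to 159 against 347 to 612 CPM). In the striatal sum Ppp1r1b alone was at 34.2 to 49.1 against 271 to 343 CPM, and Drd1 was not called (log2 fold change -0.17). Markers of dorsal telencephalic neurons fell for 6 of 7 (1670 to 1810 against 827 to 981 CPM), oligodendrocyte precursor markers for 6 of 6 (422 to 456 against 234 to 312 CPM) and endothelial markers for 3 of 5 (138 to 182 against 74.5 to 141 CPM). Ttr, a choroid plexus gene, reached 584 and 1130 CPM in dcKO_hGFAP-Cre replicates 1 and 2 and at most 15.8 CPM in any other sample. Of the 6 astrocyte and radial glia markers, Gfap stood at 79.3 to 89.5 CPM in control samples. It was at 24.2, 32.2 and 26.2 CPM in dcKO_hGFAP-Cre replicates 1, 2 and 4, and at 273 CPM in replicate 3. Aldh1l1, Aqp4 and Slc1a3 were also below every control in dcKO_hGFAP-Cre replicates 1, 2 and 4, but not in replicate 3. Fabp7 was mixed, and Hopx rose (log2 fold change 1.23), the only 1 of the 6 called. The mitochondrial share of counts was 2.06% to 3.23% in control and 3.57% to 5.47% in dcKO_hGFAP-Cre samples. The part of these shifts in the results below was not tested, and in such bulk tissue fewer cells of a type and less RNA per cell cannot be told apart.

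Across the 34 members, 9 rose in the dcKO_hGFAP-Cre cortex (Trp53, Mdm4, Ei24, Eda2r, Tnfrsf10b, Bad, Hrk, Xiap and Diablo), 3 fell (Zmat3, Plk2 and Aen) and 22 were not called, by edgeR's quasi-likelihood F test with a Benjamini-Hochberg adjusted p under 0.05 over all genes tested. The called members made up 35.3% of the set, beside 37.5% of all 16525 genes tested, so the set as a whole was called about as often as any gene. Members higher in the mutants were 26.5% of the set, beside 18.6% of all genes, and members lower were 8.82%, beside 18.9%. The median log2 fold change was 0.20 over the members and 0.02 over all genes tested, and the median size of the change, regardless of sign, was 0.27 and 0.29. Groups did not overlap for 10 of the 34 members, all of them called, beside 34.4% of all genes tested. Of the 12 called members, 9 changed by less than 1.5-fold and 2, both death receptors, by 2-fold or more. The counts moved with the samples included. Without dcKO_hGFAP-Cre replicates 1 and 2, which carried the high Ttr, 1 member was higher (Hrk) and 1 lower (Plk2), while the share of all genes called fell to 17.2%. In that fit of 6 samples the member median was 0.17. Log2 fold changes were 0.36 for Trp53, 0.43 for Mdm4, 0.95 for Eda2r and 1.34 for Tnfrsf10b. Others moved further towards 0 for their size, with 0.173 for Ei24 (0.235 with all samples), -0.443 for Zmat3 (-0.547), 0.175 for Trp53inp1 (0.33) and 0.069 for Mdm2 (0.206). Perp changed sign (-0.175, beside 0.027). Leaving out dcKO_hGFAP-Cre replicate 1, dcKO_hGFAP-Cre replicate 2, control replicate 3 or control replicate 4 alone left 4, 5, 4 and 5 members higher, while 29.8%, 29.9%, 27.6% and 31.0% of all genes were called in either direction. Scaled by library totals instead of TMM factors, 16 members were higher and 3 lower, with 40.5% of all genes called and a median log2 fold change over all genes of 0.15.

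**Figure D1:**
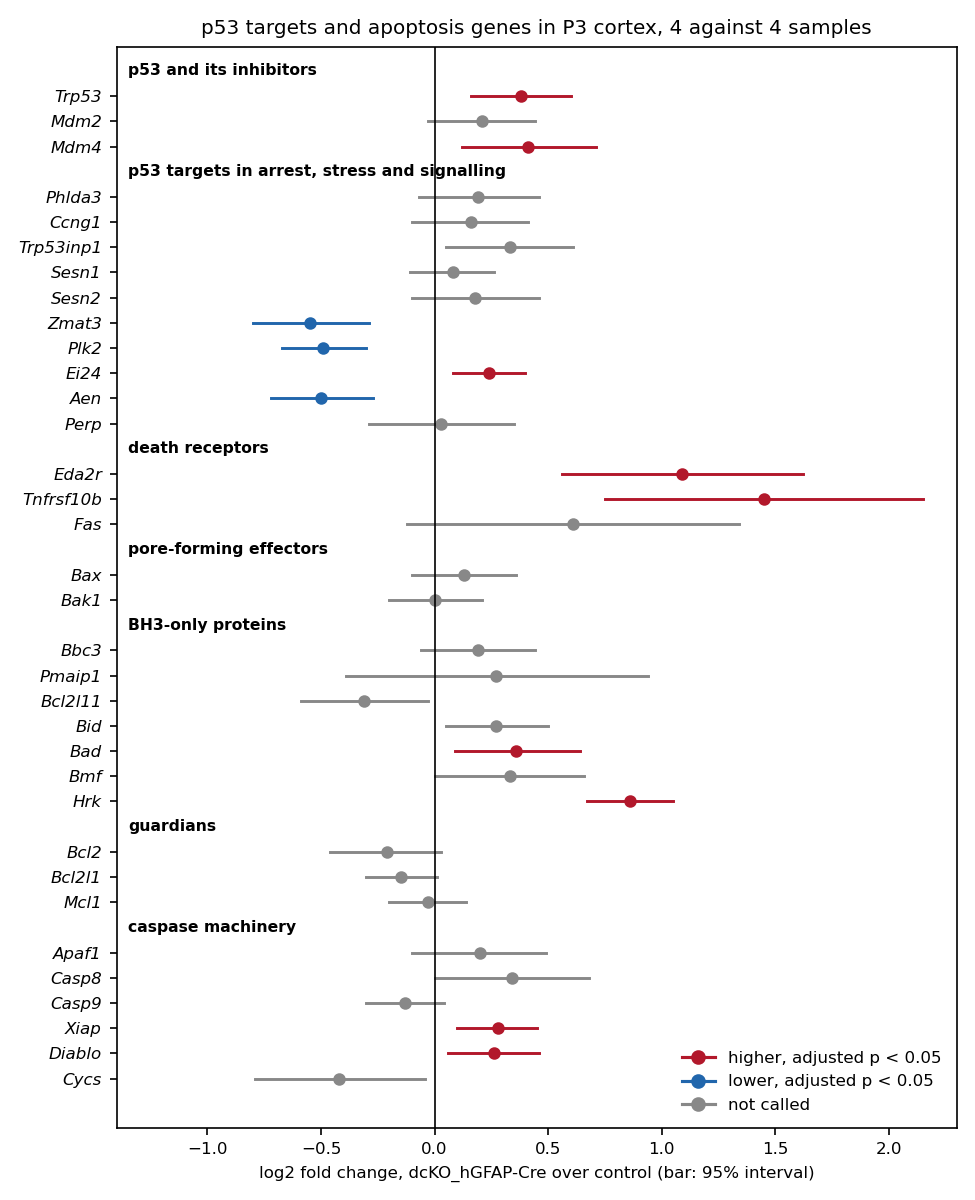
Log2 fold change of each of the 34 members, dcKO_hGFAP-Cre over control, on the horizontal axis, with members grouped by role on the vertical axis; points are estimates from edgeR and bars are 95% intervals, n = 4 samples per group. The 2 largest increases were the death receptors Tnfrsf10b (1.45) and Eda2r (1.09), the narrow interval well above 0 belonged to Hrk (0.67 to 1.05), and the 3 decreases were all targets of p53.

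The starting point of the pathway, Trp53 itself (chr11:69580359-69591873, plus strand, mm10), rose. Its level was 31.9, 35.2, 43.6 and 39.4 CPM in control replicates 1 to 4 and 52.1, 47.4, 45.6 and 50.6 CPM in dcKO_hGFAP-Cre replicates 1 to 4. Every mutant sample lay above every control sample, although the lowest mutant and the highest control were only 45.6 and 43.6 CPM. The log2 fold change was 0.38 ± 0.10 (SE; 95% interval 0.16 to 0.60; adjusted p = 0.0116), an increase of 30.2%, and the two-sided exact permutation test over the samples gave p = 0.0286, the smallest value that 4 against 4 samples allow. The files hold RNA only, so p53 protein was not measured.

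Mdm4 (chr1:132959484-133030561, minus strand), which binds and restrains p53, rose by a log2 fold change of 0.41 ± 0.14 (adjusted p = 0.0314). Control replicates 1 to 4 had 97.5, 98.2, 75.5 and 78.7 CPM, and dcKO_hGFAP-Cre replicates 1 to 4 had 123, 108, 91.6 and 143 CPM. The groups overlapped, since dcKO_hGFAP-Cre replicate 3 fell between the control values, and the exact permutation p was 0.0857. Mdm2, at once the ligase that degrades p53 and a classical p53 target, was at 52.8 ± 4.83 CPM in control and 60.9 ± 8.88 CPM in dcKO_hGFAP-Cre samples (SD, n = 4 each). With a log2 fold change of 0.21, Mdm2 was not called (95% interval -0.03 to 0.44; adjusted p = 0.152).

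Among the 10 p53 targets in arrest, stress and signaling, 1 rose, 3 fell and 6 were not called. Over all genes tested, 18.6% were higher and 18.9% lower, or 37.5% called. The most abundant was Plk2 (chr13:110395046-110400844, plus strand), which encodes a polo-like kinase that p53 can induce and that neurons also induce with activity. It stood at 288, 299, 306 and 311 CPM in control replicates 1 to 4 and at 226, 187, 242 and 204 CPM in dcKO_hGFAP-Cre replicates 1 to 4. No mutant sample reached the lowest control, and the log2 fold change was -0.49 ± 0.09 (adjusted p = 0.000968), a level 28.7% lower.

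Zmat3 (chr3:32334792-32366014, minus strand) encodes a zinc finger RNA-binding protein and is a well-known target of p53. Controls had 44.8, 66.1, 62.4 and 62.4 CPM and mutants 36.6, 38, 43.7 and 43.0 CPM, in replicate order. The groups did not overlap, but control replicate 1 was barely above the highest mutant sample. The log2 fold change was -0.55 ± 0.12 (adjusted p = 0.00363).

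Aen (chr7:78895854-78911209, plus strand), the apoptosis-enhancing nuclease induced by p53, was at 52.2, 51.8, 65.0 and 67.7 CPM in control replicates 1 to 4. In dcKO_hGFAP-Cre replicates 1 to 4 it was at 38.5, 41.6, 43.9 and 43.7 CPM, all below the controls. The log2 fold change was -0.50 ± 0.10 (adjusted p = 0.00283). Zmat3, Plk2 and Aen, which p53 is known to raise, were lower in the group in which the Trp53 transcript was higher. The p53 targets Ei24 (log2 fold change 0.24), Eda2r (1.09) and Tnfrsf10b (1.45) were called higher in that same group. A link of any of these to Trp53 was not tested.

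Ei24 (chr9:36779159-36797393, minus strand), an endoplasmic reticulum protein gene first known as induced by DNA damage through p53, was the target in this role that rose. Its controls had 144, 159, 154 and 157 CPM and its mutants 182, 195, 167 and 179 CPM, in replicate order. The groups did not overlap and the increase was small, with a log2 fold change of 0.24 ± 0.07 (adjusted p = 0.0247), or 17.7%. The call held under 8 of the 17 alternatives and was lost with the replicate block (adjusted p = 0.052).

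The other 6 targets in this role were not called. The cell death regulator Trp53inp1 had the widest shift, with a log2 fold change of 0.33 (95% interval 0.05 to 0.61; adjusted p = 0.0651), and it was called higher with the replicate block (adjusted p = 0.0253) and with lane as a block (adjusted p = 0.0155). Phlda3, an inhibitor of AKT signaling (0.19), Ccng1, the gene of cyclin G1 (0.16), the stress-induced sestrins Sesn1 (0.08) and Sesn2 (0.18), and the membrane protein gene Perp (0.03) had estimates above 0 with intervals that included 0. Cdkn1a, the p21 gene through which p53 arrests the cell cycle, is not a member but a member of the wider target list described below. It stood at 36.8 ± 3.45 CPM in the controls and 37.1 ± 2.74 CPM in the mutants, a log2 fold change of 0.01 (95% interval -0.19 to 0.22; adjusted p = 0.922).

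**Figure D2:**
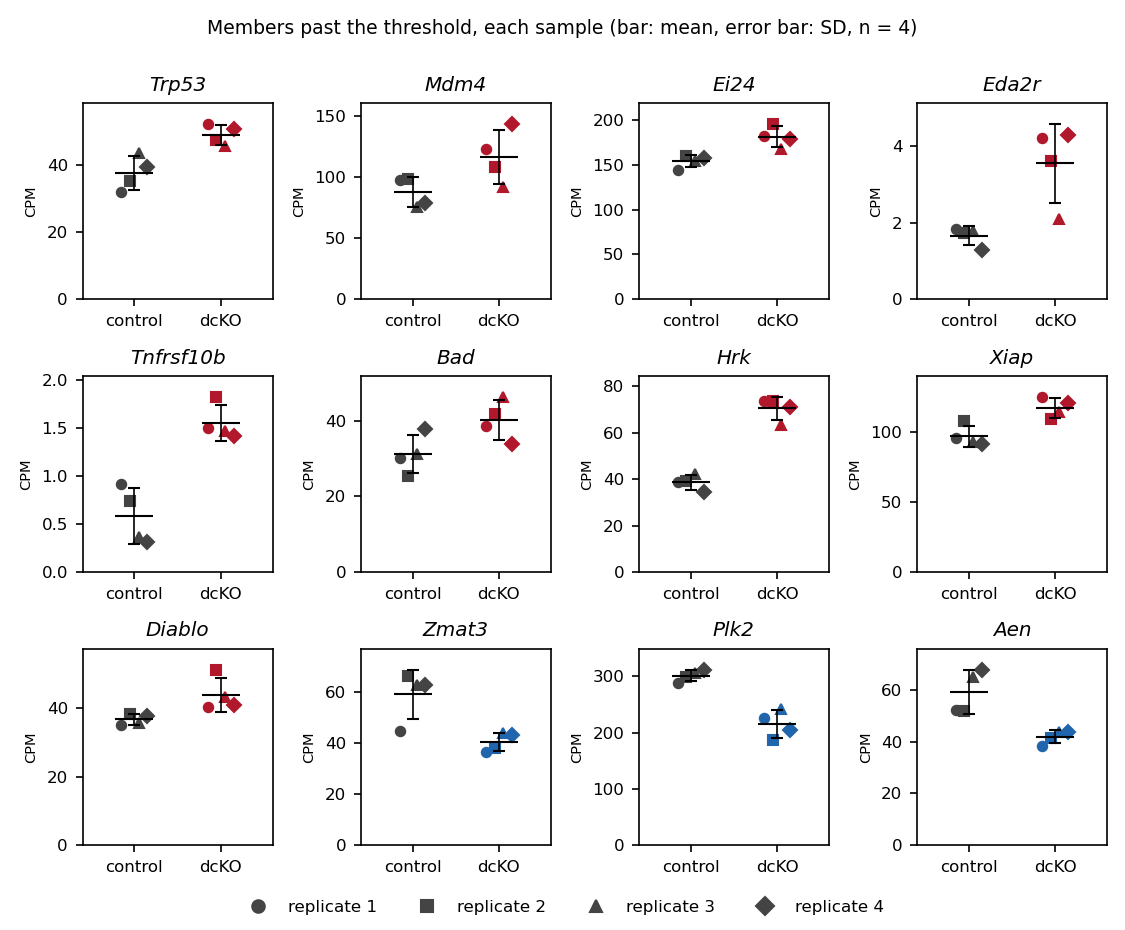
Level in CPM on the vertical axis, from 0, of the 12 called members in each of the 4 control and 4 dcKO_hGFAP-Cre samples; symbols mark the replicate number, horizontal bars the mean and error bars the SD. Mdm4 and Bad were the 2 called members whose groups overlapped, and Hrk had a clear gap, with 34.6 to 42.4 CPM in control and 63.3 to 73.8 CPM in mutant samples.

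The promoters of the members were read from RefSeq, as windows from 250 bases before to 50 bases after each annotated start on GRCm38.p6, and searched for the consensus half-site of p53, a palindrome of 10 letters. Windows were found for 29 of the 34 members, and not for Trp53inp1, Zmat3, Perp, Tnfrsf10b and Pmaip1. An exact half-site lay in a window of 8 of the 29 (27.6%), Trp53, Mdm2, Ccng1, Sesn1, Ei24, Aen, Bax and Bmf, beside 9.55% of all genes with a window. Such pairs as p53 binds as a tetramer, here 2 half-sites up to 13 bases apart with at most 2 mismatches each pair, were found in Ccng1, Sesn1 and Bax (10.3%, beside 4.71% of all genes). Of the called members with a window, which leaves out Zmat3 and Tnfrsf10b, 3 (Trp53, Ei24 and Aen) had a half-site and 0 had a pair. A match describes letters in the window, not binding, and many p53 sites lie outside such windows. The windows of Ccng1 and Bax, which held a pair and were not called, and of Ei24, which rose, and Aen, which fell, are shown 5' to 3' on the strand of the gene, with the exact half-site in capitals.
Ccng1, chr11:40755237-40755536, minus strand: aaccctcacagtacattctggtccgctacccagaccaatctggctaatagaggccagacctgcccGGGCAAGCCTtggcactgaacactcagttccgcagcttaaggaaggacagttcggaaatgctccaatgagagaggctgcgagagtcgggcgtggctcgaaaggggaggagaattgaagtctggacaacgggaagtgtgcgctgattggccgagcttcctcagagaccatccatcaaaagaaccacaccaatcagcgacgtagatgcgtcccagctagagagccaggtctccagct
Bax, chr7:45466849-45467148, minus strand: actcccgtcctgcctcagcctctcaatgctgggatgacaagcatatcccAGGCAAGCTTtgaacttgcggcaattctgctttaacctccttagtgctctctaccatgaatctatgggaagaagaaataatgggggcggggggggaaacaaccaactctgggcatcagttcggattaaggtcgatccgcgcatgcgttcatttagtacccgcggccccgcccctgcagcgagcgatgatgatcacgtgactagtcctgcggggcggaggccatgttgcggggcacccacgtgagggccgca
Ei24, chr9:36797285-36797584, minus strand: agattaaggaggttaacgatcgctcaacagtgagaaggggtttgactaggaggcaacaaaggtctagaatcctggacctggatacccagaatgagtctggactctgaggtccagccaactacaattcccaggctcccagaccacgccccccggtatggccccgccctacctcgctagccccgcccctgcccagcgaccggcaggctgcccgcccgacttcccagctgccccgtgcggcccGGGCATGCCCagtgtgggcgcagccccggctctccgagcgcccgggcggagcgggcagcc
Aen, chr7:78895677-78895976, plus strand: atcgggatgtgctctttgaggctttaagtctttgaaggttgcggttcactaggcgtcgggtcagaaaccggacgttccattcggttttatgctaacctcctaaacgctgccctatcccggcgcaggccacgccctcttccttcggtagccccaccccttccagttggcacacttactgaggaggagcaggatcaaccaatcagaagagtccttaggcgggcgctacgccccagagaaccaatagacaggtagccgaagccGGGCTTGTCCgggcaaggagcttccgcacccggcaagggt
The half-site of Ei24 began 10 bases before the annotated start. Aen had 2 annotated starts with a window, and its half-site began 10 bases after the one shown and 121 bases before the other. The members with such letters therefore included genes that rose, fell and were not called.

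The death receptors were the scarcest members and held the largest changes. Eda2r (chrX:97333840-97377216, minus strand), the receptor of ectodysplasin A2 and a p53 target, was at 1.84, 1.73, 1.79 and 1.28 CPM in control replicates 1 to 4. It was at 4.19, 3.6, 2.08 and 4.29 CPM in dcKO_hGFAP-Cre replicates 1 to 4, so that all 4 mutants exceeded the controls and replicate 3 did so narrowly. The log2 fold change was 1.09 ± 0.24 (adjusted p = 0.0042), a 2.13-fold increase.

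Tnfrsf10b (chr14:69767472-69784411, plus strand), the mouse receptor of the death ligand TRAIL and also a p53 target, had 0.92, 0.739, 0.365 and 0.312 CPM in control replicates 1 to 4. Mutant replicates 1 to 4 had 1.5, 1.82, 1.47 and 1.42 CPM. The groups did not overlap, and the log2 fold change was 1.45 ± 0.32 (95% interval 0.75 to 2.15; adjusted p = 0.00415). These values rested on 9 to 47 counts per sample. Fas, the receptor of FAS ligand, was scarcer still, with 5 to 21 counts per sample. Its log2 fold change of 0.61 had an interval of -0.12 to 1.34, so that neither no change nor a change as large as that of Eda2r was distinguishable at this depth (adjusted p = 0.168).

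The pore-forming effectors and the guardians held no called member. Neither effector had an unadjusted p under 0.05 by edgeR (0 of 2), and DESeq2, which called 34% of all genes it tested, called 0 of 2. Bax was at 55.7 ± 7.92 CPM in the controls and 61.0 ± 5.17 CPM in the mutants (log2 fold change 0.13, 95% interval -0.10 to 0.36), and Bak1 at 30.3 ± 1.78 and 30.3 ± 2.88 CPM (0.00, -0.20 to 0.21). Of the 3 guardians, likewise, 0 had an unadjusted p under 0.05 by edgeR and DESeq2 called 0. Bcl2 (log2 fold change -0.21, 95% interval -0.46 to 0.03), Bcl2l1 (-0.15, -0.30 to 0.01) and Mcl1 (-0.03, -0.20 to 0.14) had estimates below 0, except that Mcl1 was at 0.089 when scaled by library totals, at 0.047 in lane 5 only and at 0.030 without dcKO_hGFAP-Cre replicate 4.

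Of the 7 BH3-only genes, 2 rose, 0 fell and 5 were not called, beside 18.6% of all genes tested higher and 18.9% lower. Hrk (chr5:118164648-118189478, plus strand), whose product binds BCL2 and BCL-XL and which is induced in neurons deprived of trophic support, changed by far the most among them. Its level was 38.7, 39.2, 42.4 and 34.6 CPM in control replicates 1 to 4 and 73.5, 73.8, 63.3 and 71.0 CPM in dcKO_hGFAP-Cre replicates 1 to 4. Even the lowest mutant sample was well above the highest control. The log2 fold change was 0.86 ± 0.09 (95% interval 0.67 to 1.05; adjusted p = 2.2e-05), an increase of 81.8%, and the call held under all 17 alternative settings.

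Bad (chr19:6941861-6951899, plus strand), a BH3-only gene whose product is switched off by growth factor signaling, had 30.1, 25.5, 31.2 and 37.7 CPM in control and 38.5, 41.8, 46.2 and 33.9 CPM in mutant samples, in replicate order. Mutant replicate 4 lay below control replicate 4, so the groups overlapped. The log2 fold change was 0.36 ± 0.13 (adjusted p = 0.0388; exact permutation p = 0.0571), and the call held under 9 of the 17 alternatives and was lost with the replicate block (adjusted p = 0.0514). Gpr137, transcribed from the opposite strand, covers 20.5% of the exonic length of Bad and was at 56.5 CPM in the controls and 51.0 CPM in the mutants. Whether its reads enter the count of Bad depends on a strand setting that is not given in the sources used here.

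The p53-induced BH3-only genes were not called. Bbc3, the gene of PUMA, was at 32.1 ± 5.42 CPM in the controls and 36.7 ± 2.20 CPM in the mutants (log2 fold change 0.19, 95% interval -0.06 to 0.44; adjusted p = 0.212). Under 2 of the 17 alternatives, library totals and lane 5 only, Bbc3 was called higher. Pmaip1, the gene of NOXA, was at 2.15 ± 0.719 and 2.60 ± 0.920 CPM (0.27, -0.39 to 0.94; adjusted p = 0.511). Of the remaining 3, Bid (0.27; adjusted p = 0.0533) and Bmf (0.33; adjusted p = 0.109) had estimates above 0, and Bcl2l11, the gene of BIM, had one below 0 (-0.31, 95% interval -0.59 to -0.03; adjusted p = 0.0742), which DESeq2 called lower. Bid shares 17.7% of its exonic length with Bcl2l13 on the opposite strand, which fell (-0.25).

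In the caspase machinery, 2 of 6 genes rose and 0 fell, beside 18.6% of all genes tested higher and 18.9% lower. Xiap (chrX:42059679-42109656, plus strand), an inhibitor of caspases, had 95.6, 108, 92.6 and 91.4 CPM in control and 125, 109, 114 and 121 CPM in mutant samples, in replicate order. The highest control and the lowest mutant were almost level, and the log2 fold change was 0.28 ± 0.08 (adjusted p = 0.0163). Diablo (chr5:123509765-123524176, minus strand) encodes the mitochondrial protein that relieves inhibition by XIAP. It had 35.1, 38.3, 35.5 and 37.8 CPM in control and 40.4, 51.1, 43.2 and 40.8 CPM in mutant samples, in replicate order. The groups did not overlap, yet the log2 fold change of 0.26 ± 0.09 was close to the threshold (adjusted p = 0.0451), and 4 of the 17 alternatives called it. It was not called with the replicate block (adjusted p = 0.0644) or with lane as a block (adjusted p = 0.0592). An inhibitor of caspases and the antagonist of that inhibitor were thus both higher, by 21.2% and 19.6%.

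The members that carry the caspase cascade itself were not called. Apaf1, the scaffold of the apoptosome, had a log2 fold change of 0.20 (95% interval -0.10 to 0.49), the initiator Casp9 one of -0.13 (-0.30 to 0.04), and Casp8, the initiator below the death receptors, one of 0.34 (adjusted p = 0.109). Cycs, the gene of cytochrome c, was at 6.47 ± 1.03 CPM in the controls and 4.83 ± 0.938 CPM in the mutants (-0.42, 95% interval -0.79 to -0.04; adjusted p = 0.0782). The annotation holds 2 pseudogenes named after Cycs and 1 each named after Trp53 and Mdm4, with which reads could be shared. Copies under other names were not counted, for these or any other members.

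Among all 22 members that were not called, 15 had estimates above 0, 6 below 0, and Bak1 was at 0.00. For 15 of the 22 the 95% interval stayed within a 1.5-fold change in either direction. The intervals of Trp53inp1, Fas, Pmaip1, Bcl2l11, Bmf, Casp8 and Cycs were wider than that, so a change of 1.5-fold remained possible for these 7.

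Levels were compared between genes per length, as CPM per kb of annotated exon, a scale on which long annotated transcripts lower the value. In control samples, Plk2 was the most abundant member (67.0 ± 2.27 CPM per kb), followed by Mcl1 (42.5 ± 2.36), Bax (35.3 ± 5.02), Ei24 (31.5 ± 1.36) and Bcl2l1 (31.3 ± 1.15 CPM per kb). Bax, Ei24 and Bcl2l1 differed from each other by less than the SD of Bax. The order of the first 7 members was the same in dcKO_hGFAP-Cre samples, where Plk2 was at 47.8 ± 5.45 and Mcl1 at 41.5 ± 3.09 CPM per kb.

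Among the guardians, Bcl2 was low (2.69 ± 0.239 CPM per kb in control) beside Mcl1 and Bcl2l1. Among the BH3-only genes, Bbc3 led in both groups (15.1 ± 2.55 and 17.3 ± 1.04 CPM per kb). Hrk moved from 6.82 ± 0.558 CPM per kb in control, below Bad (12.2 ± 1.97) and Bid (8.24 ± 0.811), to 12.4 ± 0.864 CPM per kb in mutant samples, above Bid (9.97 ± 1.02) and still below Bad (15.7 ± 2.03). Eda2r, Fas and Tnfrsf10b closed the order in both groups, all under 1 CPM per kb.

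**Figure D3:**
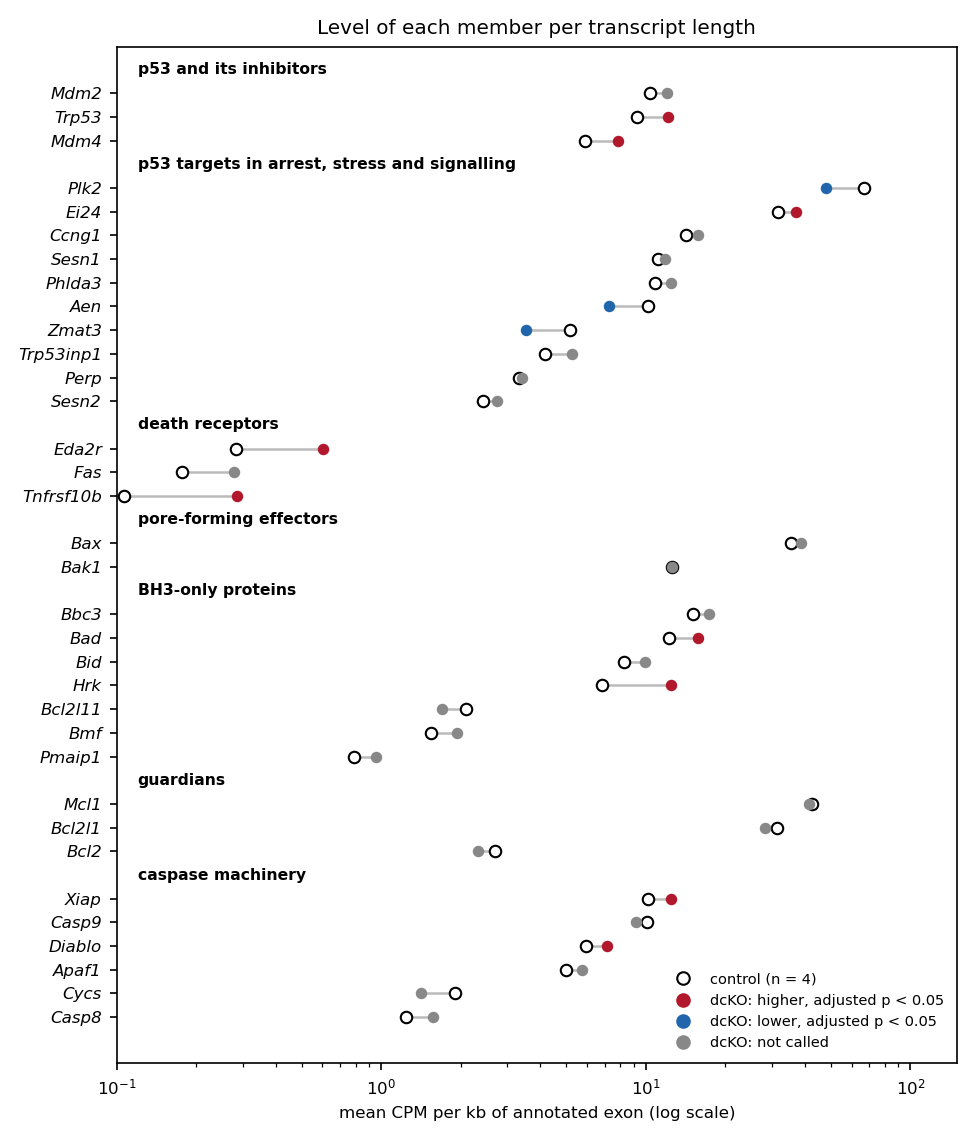
Mean level of each member per length, in CPM per kb of annotated exon on a logarithmic horizontal axis, with open circles for control and filled circles for dcKO_hGFAP-Cre samples (n = 4 each) and members grouped by role. Levels ran from 0.107 CPM per kb (Tnfrsf10b in control) to 67.0 CPM per kb (Plk2 in control), and Plk2 and the death receptors stood at the ends of the order in both groups.

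The libraries were run in 3 lanes, each with both genotypes: lane 5 held 2 samples of each group and lanes 6 and 7 held 1 of each. For the 10 called members whose groups did not overlap, the direction within each lane was fixed by that and is no separate result. Of the other called members, Mdm4 kept its direction in every lane (log2 ratio of CPM 0.24, 0.28 and 0.86 in lanes 5, 6 and 7). Bad did not (0.53, 0.57 and -0.15). Zmat3 was even across lanes (-0.57, -0.52 and -0.54). Plk2 (-0.51, -0.34 and -0.61) and Hrk (0.92, 0.58 and 1.04) changed least in lane 6. Trp53 (0.57, 0.07 and 0.36), Eda2r (1.13, 0.22 and 1.74) and Ei24 (0.31, 0.12 and 0.19) also changed least in lane 6. That lane held replicate 3 of each group. Tnfrsf10b (1.0, 2.01 and 2.18), Aen (-0.38, -0.57 and -0.63) and Xiap (0.21, 0.29 and 0.41) changed least in lane 5. Diablo (0.32, 0.28 and 0.11) changed least in lane 7.

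**Figure D4:**
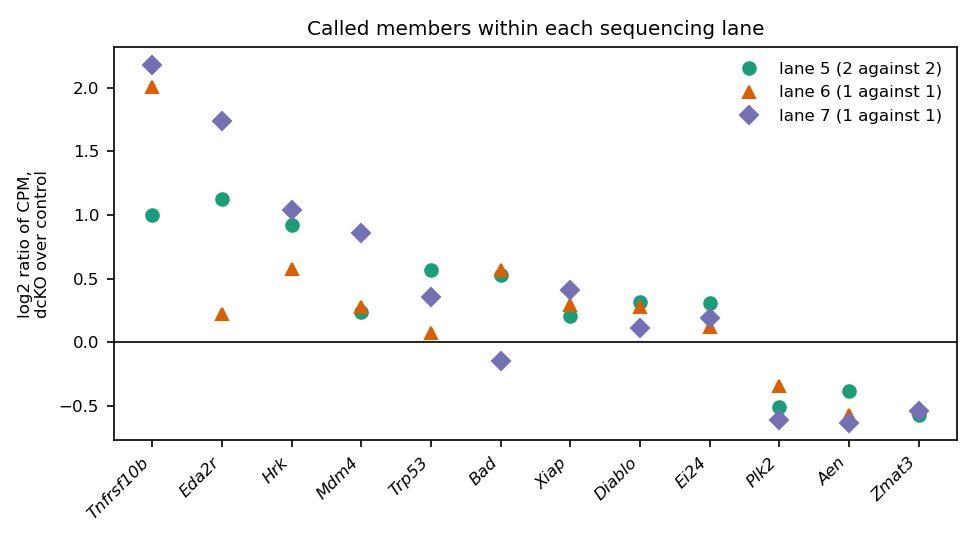
Log2 ratio of CPM, dcKO_hGFAP-Cre over control, on the vertical axis for each of the 12 called members within sequencing lane 5 (2 against 2 samples), 6 and 7 (1 against 1 each). All ratios had the sign of the pooled estimate except that of Bad in lane 7 (-0.15). For the called members whose groups did not overlap this sign was fixed, so only Mdm4 and Bad could differ.

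Genes of the same pathways outside the members were counted from 3 further lists. Of 19 other p53 targets, 18 were tested, and 3 rose (Btg2, Ddit4 and Rps27l) and 2 fell (Tigar and Ak1), or 27.8% called, beside 37.5% of all genes tested. Scaled by library totals, 7 rose and 1 fell, while 40.5% of all genes were called. Rps27l, a ribosomal protein gene induced by p53, rose the most, from 9.78 ± 1.32 CPM in control to 18.9 ± 2.47 CPM in mutant samples (log2 fold change 0.95 ± 0.13; adjusted p = 0.000211), and may share reads with its close paralog Rps27. Tigar, a p53-induced regulator of glycolysis, fell from 23.5 ± 2.54 to 16.7 ± 2.44 CPM (-0.49 ± 0.12; adjusted p = 0.00888). Btg2 is also a marker of intermediate progenitors. Of the other 3 tested markers of those cells, Eomes (0.70) and Neurog2 (2.71) rose and Sstr2 fell (-1.58).

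Of 22 other apoptosis genes, 21 were tested, and 3 rose (Birc2, Birc5 and Dffb) and 3 fell (Birc6, Cflar and Tradd), or 28.6% called, beside 37.5% of all genes tested. Scaled by library totals, 6 rose and 2 fell. Birc2, the gene of the caspase and TNF signaling regulator cIAP1, rose the most, from 30.6 ± 2.15 to 45.2 ± 2.32 CPM (log2 fold change 0.57 ± 0.08; adjusted p = 0.000331). Tradd, an adaptor of TNF receptors, fell the most, from 10.4 ± 0.598 to 6.65 ± 1.85 CPM (-0.64 ± 0.17; adjusted p = 0.0116). Birc5, the gene of survivin, rose by 0.47 (adjusted p = 0.0173), and survivin also serves mitosis. Of the 8 markers of proliferating cells 2 rose.

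Of 16 regulators and relatives of p53, 14 were tested, and 4 rose (Trp73, Chek1, Chek2 and Rchy1), or 28.6%, beside 18.6% of all genes higher and 37.5% called in either direction. None fell by edgeR, where 4 of the 14 had an unadjusted p under 0.05, and 0 fell by DESeq2. Trp73, the gene of the p53 relative p73, which marks Cajal-Retzius and choroid plexus or ependymal cells in the developing brain, rose the most. It was at 8.15, 11.5, 12.3 and 13.1 CPM in control replicates 1 to 4 and at 22.7, 34.1, 14.9 and 16.7 CPM in dcKO_hGFAP-Cre replicates 1 to 4 (log2 fold change 0.97 ± 0.26; adjusted p = 0.0144). Its highest values were in dcKO_hGFAP-Cre replicates 1 and 2, the samples with high Ttr, and the call was lost without them and with no low-count filter. Cdkn2a, which encodes ARF, the inhibitor of MDM2, was too scarce to test, at 0.202 ± 0.129 CPM in the controls and 0.328 ± 0.0735 CPM in the mutants.

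**Figure D5:**
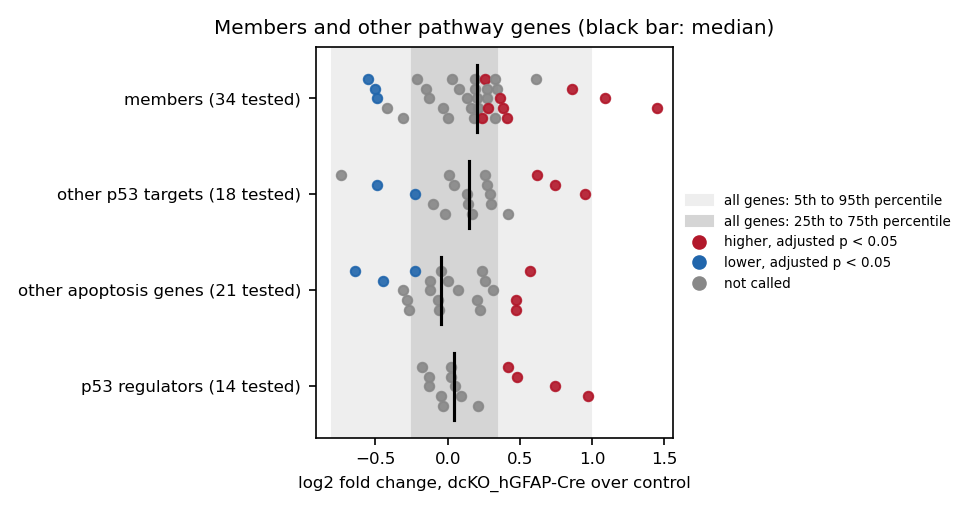
Log2 fold change, dcKO_hGFAP-Cre over control, on the horizontal axis for the 34 members and the tested genes of the 3 further lists, 1 point per gene, with list medians as black bars and the spread of all 16525 genes tested as gray bands. The medians were 0.20, 0.15, -0.05 and 0.04 for members, other p53 targets, other apoptosis genes and p53 regulators, beside 0.02 over all genes tested.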

How the data were processed

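RNA of 4 control and 4 dcKO_hGFAP-Cre P3 cortices was analysed. The authors deposited raw counts per Ensembl gene: libraries were made with the TruSeq RNA v2 kit, and reads were aligned to mm10 and counted with featureCounts. The aligner, annotation and strand setting are not given in the sources used here. Symbols and coordinates came from GENCODE release 21 for mouse on the same build. The members and gene lists were chosen with earlier results of these data known.

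Counts were tested with edgeR 4.0.16 in R 4.3.3: TMM normalization, the default low-count filter (minimum count 10), robust quasi-likelihood F tests without a block, and Benjamini-Hochberg adjustment over 16525 genes, with a threshold of 0.05. DESeq2 1.42.0 was an alternative. Log2 fold changes carry their SE, levels in CPM the SD, with 4 samples per group. Single members were also tested by a two-sided exact permutation test over 70 arrangements. Methods were tested on simulated data in which far fewer genes changed than were called here. That test does not bear on the choice of scaling. The article's methods give 4 samples per genotype, and no source used here names litters or pooling, so p-values measure the spread between these samples. Values of few counts carry counting error, and 3 counts was taken as the floor.

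All 34 members are reported: those called, and Trp53, sample by sample, the others by log2 fold change, some of them with a mean or an interval. From the further lists, the largest rise and fall among called genes were named, with Cdkn1a, Birc5 and Cdkn2a; 1 further gene of this rule is not reported here. Same-numbered samples of both groups shared a sequencing lane (1 and 2 in lane 5, 3 in lane 6, 4 in lane 7, per the labels). Their deviations from the group means correlated at 0.171, -0.0679, 0.213 and -0.0238, and those of differently numbered samples at -0.314 to 0.255. Fits with replicate number or lane as a block were also made. Alternatives comprised scaling, filters, blocks, lane 5 alone, and leaving out samples. The setting without both samples high in Ttr was chosen after seeing the data. Half-sites were counted on both strands.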

Additional observations from a re-analysis of the deposited data

Results flagged for a closer look

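Each member's 4 samples per group were screened for a value far from the others by Dixon's test, and 3 of 68 groups stood out, where chance gives about 3.4. Perp was lowest in control replicate 1, at 5.8 CPM, with 6.65 to 6.74 CPM in the other controls. Casp8 was lowest in dcKO_hGFAP-Cre replicate 4, at 3.68 CPM, with 4.78 to 4.96 CPM in the other mutants. Casp9 was highest in dcKO_hGFAP-Cre replicate 2, at 52.3 CPM, with 46.0 to 46.8 CPM in the other mutants. None of these 3 genes was called.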

How the results depend on the processing

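All 12 called members kept their direction under all 17 alternatives (16 for Tnfrsf10b, which was not tested in 1). Plk2 and Hrk were called in every one, Trp53, Zmat3, Aen and Eda2r in 16, Tnfrsf10b in 14, Xiap in 12, Mdm4 in 10, Bad in 9, Ei24 in 8 and Diablo in 4.

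With library totals as the scale, the median over all genes moved from 0.02 to 0.15 (log2) and that over the members to 0.32, and 40.5% of all genes were called. This gave 16 members higher and 3 lower, 7 other p53 targets higher and 1 lower, 6 other apoptosis genes higher and 2 lower, and 4584 of all genes higher and 2102 lower, beside 3074 and 3128. With DESeq2's size factors 9 members were higher and 3 lower, and by DESeq2 8 and 4. Requiring 10 counts in every sample left 1 other p53 target lower. In lane 5 only, the members' median was 0.26, 1 other p53 target was lower, 2 p53 regulators and 1951 of all genes were higher.

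Without both samples with high Ttr, 1 member was higher and 1 lower, 0 other p53 targets lower, 1 other apoptosis gene higher and 0 lower, 0 p53 regulators higher, and 1388 of all genes higher and 1581 lower. That fit had 6 samples, and the cause of the losses was not tested. Leaving out 1 sample at a time gave 4 to 10 members higher, 3 to 4 lower and a median of 0.13 to 0.23. The same omissions gave 3 to 5 other p53 targets higher and 1 to 3 lower, 1 to 5 other apoptosis genes higher and 2 to 5 lower, and 0 to 1 p53 regulators lower.

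Estimates near 0 changed sign, none of them called. Perp became -0.18 without both samples with high Ttr and -0.069 to 0.116 when 1 sample was left out. Bak1 became -0.017 by DESeq2, -0.0026 with its size factors, -0.0037 with no filter, -0.0015 with the replicate block, -0.014 without the samples with high Ttr, and lay between -0.054 and 0.056 when 1 sample was left out. Mcl1 became 0.089 with library totals and 0.047 in lane 5, and Cdkn1a became -0.0033 by DESeq2 and -0.011 in lane 5. When 1 sample was left out, Mcl1 lay between -0.072 and 0.030 and Cdkn1a between -0.032 and 0.055. The cause was not tested.

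A fit with the replicate block gave 7 members higher and 3 lower, with 35.8% of all genes called. Ei24, Bad and Diablo were no longer called and Trp53inp1 was called. With lane as a block, 9 members were higher and 3 lower, with 39.0% of all genes called, where Diablo was no longer called and Trp53inp1 was. Neither block changed the call of any other member.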
